A study of Mus musculus with 13 samples.

Results

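The collagen chain genes are the 44 genes, of 45777 in the deposited table, whose symbol reads Col, a number, a and a number. The genes were chosen by symbol, and no measured value entered that choice, but the family itself was selected on earlier results computed from these counts, so its counts are a description. The 44 comprised 6 chains of collagen IV (basement membrane), 11 fibrillar chains, 6 of collagen VI, 3 of the network collagens VIII and X, 9 FACIT chains (fibril-associated collagens with interrupted triple helices), 4 transmembrane chains, 2 multiplexins and 3 others (Col7a1, Col26a1 and Col28a1).

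RNA was from whole hippocampi of 13 mice. SE-cKO (n = 3) and SE-WT (n = 3) were taken 3 days after pilocarpine-induced status epilepticus (SE, continuous seizures; males received 260 mg/kg, females 280 mg/kg), and sham-cKO (n = 4) and sham-WT (n = 3) 3 days after saline. cKO mice were Nestin-Cre::Lin28aloxP/loxP and WT mice Nestin-Cre::Lin28a+/+, so every group carried the Cre transgene, which is active in neural progenitors and passes the deletion to the neurons, astrocytes and oligodendrocytes made from them. Both lines were backcrossed to C57BL/6N, and mice were 6 weeks old at injection. Mice given pilocarpine also received scopolamine methyl nitrate, terbutaline and diazepam, and only those that entered SE were kept, whereas sham mice are labelled as given saline. Sex is not labelled. The replicates are labelled as biological, and pairs of replicates differed by 47.8 to 440 times the sampling variance per gene.

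Collagen chains wind in threes into a triple helix inside the endoplasmic reticulum, where prolines and lysines are hydroxylated, and are then secreted, trimmed and cross-linked. Collagen IV forms the sheet of every basement membrane, fibrillar collagens form banded fibers, and the FACITs sit on the surface of those fibers. Healthy brain tissue holds little fibrillar collagen outside the meninges and vessel walls, and the collagen IV around its capillaries is laid down by endothelial cells, pericytes and astrocytes.

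The start sites of the collagen IV genes lie head to head in pairs, and the windows of the 4 chains that rose after SE in the cKO are shown because the pairs are transcribed outward from 1 region. Each window holds 300 bases, 5′ to 3′ along the gene and mostly before its RefSeq start (GRCm38.p6). Capitals mark CCAAT and GGGCGG on either strand.
Col4a1: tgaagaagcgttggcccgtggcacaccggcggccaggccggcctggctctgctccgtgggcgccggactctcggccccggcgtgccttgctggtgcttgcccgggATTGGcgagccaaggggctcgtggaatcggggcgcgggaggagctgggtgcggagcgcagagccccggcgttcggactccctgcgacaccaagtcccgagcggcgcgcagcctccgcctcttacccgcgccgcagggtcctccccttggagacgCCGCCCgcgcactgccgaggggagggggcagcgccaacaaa
Col4a2: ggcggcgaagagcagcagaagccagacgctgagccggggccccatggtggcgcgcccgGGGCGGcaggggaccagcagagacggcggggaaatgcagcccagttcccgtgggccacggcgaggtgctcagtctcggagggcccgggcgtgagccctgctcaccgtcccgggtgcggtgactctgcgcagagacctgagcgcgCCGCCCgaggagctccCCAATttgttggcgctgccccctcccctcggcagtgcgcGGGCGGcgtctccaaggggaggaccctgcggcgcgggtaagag
Col4a5: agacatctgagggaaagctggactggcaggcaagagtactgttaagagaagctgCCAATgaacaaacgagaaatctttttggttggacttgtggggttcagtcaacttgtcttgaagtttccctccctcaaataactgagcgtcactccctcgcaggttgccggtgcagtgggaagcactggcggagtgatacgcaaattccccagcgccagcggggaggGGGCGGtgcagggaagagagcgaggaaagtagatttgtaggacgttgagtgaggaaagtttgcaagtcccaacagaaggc
Col4a6: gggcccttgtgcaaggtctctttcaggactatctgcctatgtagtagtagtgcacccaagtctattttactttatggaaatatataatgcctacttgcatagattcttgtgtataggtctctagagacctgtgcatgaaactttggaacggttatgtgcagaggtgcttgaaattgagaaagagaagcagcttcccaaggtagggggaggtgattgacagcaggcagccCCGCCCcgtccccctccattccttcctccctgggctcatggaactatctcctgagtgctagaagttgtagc
By the starts used for these windows, Col4a1 (minus strand) and Col4a2 (plus strand) start 21 bases apart on chromosome 8, and their windows, chr8:11312777-11313076 and chr8:11312555-11312854, share 78 bases. By the same kind of start, Col4a5 (plus strand) and Col4a6 (minus strand) lie 1343 bases apart on chromosome X, with windows at chrX:141475169-141475468 and chrX:141474027-141474326. Both distances depend on the start chosen, since the gene bounds begin farther upstream, at 11312889 for Col4a1, 141475370 for Col4a5 and 141474095 for Col4a6. The letters TATAAA were in none of these 4 windows and in 13.6% of all 32851 windows of the table, and TGANTCA, the letters bound by AP-1 factors, in none of the 4 and in 7.81% of all. GGGCGG was in each of the 4, in 23 of 38 windows of 35 collagen genes and in 35.7% of all windows. CCAAT was in 3 of the 4, in 13 of the 38 and in 37.4% of all. These are matches of letters on either strand, and factor binding was not measured.

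Lin28a, the deleted gene, codes for a protein that binds let-7 precursors and holds back their processing to mature microRNAs. It had 3 counts in SE-WT replicate 3 and 0 in the other 12 libraries, where 3 counts, the limit that a count of 0 allows, are 0.0364 to 0.0506 CPM (read count relative to the TMM-scaled library total), so its RNA did not check the genotype labels. The let-7 miRNAs are shown because their seed (bases 2 to 8, in capitals) is the same in the 8 members of the family in the RefSeq table (GRCm38.p6).
let-7a: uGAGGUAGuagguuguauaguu
let-7d: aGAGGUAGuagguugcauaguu
let-7g: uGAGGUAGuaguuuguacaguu
The complement of that seed, CTACCTC, was in the 3′ UTR of 9 of 41 collagen genes with an annotated 3′ UTR (22%) and in 7.76% of 20743 genes (GENCODE M21). Median 3′ UTR lengths were 959 and 776 bases, and there were 0.17 matches per kb in the collagen genes and 0.069 over all genes. The matches of 5 fibrillar chains are shown, 23 bases each with CTACCTC in capitals, because these chains differ in how they moved.
Col1a1, chr11:94952391-94952413: gtgttgctgaaagaCTACCTCgt
Col1a2, chr6:4541063-4541085: tccaaaggtttgaaCTACCTCaa
Col3a1, chr1:45349136-45349158: cctccctatgttaaCTACCTCaa
Col5a2, chr1:45375100-45375122: tttcttagcatgacCTACCTCat
Col27a1, chr4:63333884-63333906: tggggtgctgtgtgCTACCTCcc
The other 4 were Col14a1, Col23a1, Col24a1 and Col26a1. The median log2 fold change of the 9 chains was 0.84 in SE-cKO against SE-WT, beside 0.51 in the 32 chains without a match and -0.01 over all genes with a match. In SE-cKO against sham-cKO it was 0.35, beside 0.97 without a match. let-7 levels were not measured, and their part in the result was not tested.

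Libraries held 59659977 to 84354243 counts, of which 25249 to 86125 fell on collagen chains, with the 3 highest collagen totals in the 3 SE-cKO libraries. SE-cKO replicate 3 and SE-WT replicate 3 carry titles in another style, and mitochondrial rRNA made up 3.92% to 4.83% of the counts in this pair and 0.486% to 1.66% elsewhere. The 12 neuron genes of the hippocampus summed to 799 CPM or more in every library. The lowest sum was in SE-WT replicate 2, and Snap25, which other neurons also express, made up 460 CPM of it. Neurod2 was at 2.48 CPM in that library, against 32.6 to 82.4 CPM elsewhere. Prox1 (17.4 CPM), Dsp (0.785 CPM), Fibcd1 (10.3 CPM) and Iyd (0 CPM) were also lowest in that library. Their lowest values elsewhere were 21.1, 1.24, 10.6 and 0.281 CPM, in that order. The rest of the list, including Calb1, Wipf3 and Man1a, lay within the range of the other libraries. In the same library 9 striatal markers summed to 1941 CPM, against 94.6 to 158 CPM elsewhere. Likewise, 9 thalamic markers summed to 1668 CPM in sham-cKO replicate 2 and 947 CPM in SE-WT replicate 3, against 108 to 195 CPM elsewhere. Markers of the choroid plexus, the secretory tissue beside the hippocampus, summed to 26.4 CPM at the lowest and 4571 CPM at the highest. Fewer cells of a type and less RNA per cell cannot be told apart in bulk tissue.

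Expression of the collagen family was greatest in SE-cKO. Per unit length, the summed TPM (length-scaled transcript abundance) of all 44 chains was 228, 172 and 247 in SE-cKO, against 111, 93.4 and 150 in SE-WT. It averaged 108 ± 25.3 in sham-cKO (SD, n = 4) and 103 ± 25.1 in sham-WT (SD, n = 3). All 3 SE-cKO libraries lay above the other 10. The 6 basement membrane chains summed to 53.1 ± 10.1 TPM in SE-cKO (SD, n = 3), against 24.4 ± 11.2 in SE-WT (n = 3), 19.3 ± 2.04 in sham-cKO (n = 4) and 16.9 ± 3.39 in sham-WT (n = 3). The 11 fibrillar chains summed to 60.3 ± 9.26 TPM in SE-cKO, against 27 ± 9.88 in SE-WT, 25.3 ± 5.39 in sham-cKO and 23.9 ± 6.03 in sham-WT. In the 27 other chains the sums were 102 ± 20.5 TPM in SE-cKO, 66.9 ± 8.43 in SE-WT, 63.8 ± 21.4 in sham-cKO and 62.4 ± 23.5 in sham-WT, and here the groups overlapped, since SE-cKO replicate 2 had 81.1 TPM and sham-cKO replicate 3 had 95.6 TPM.

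**Figure D1:**
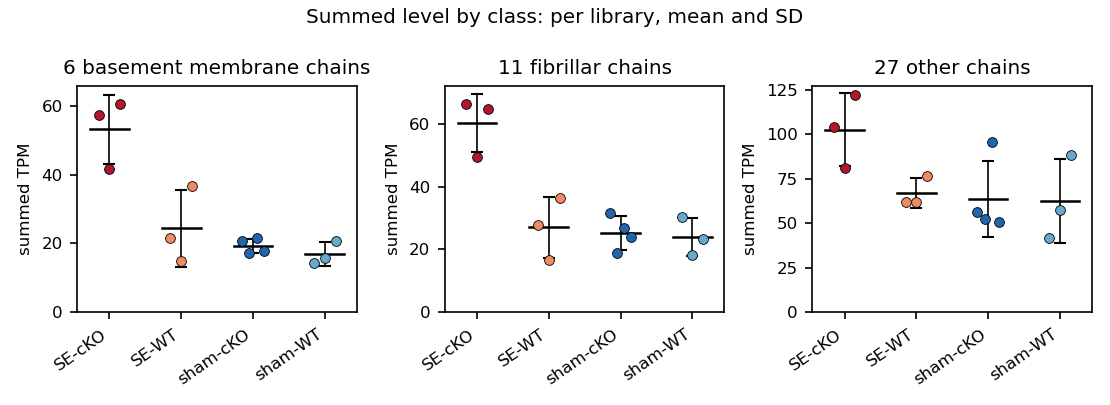
Summed TPM (y axis) of the 6 basement membrane, 11 fibrillar and 27 other collagen chains in each library (points) of the 4 groups, with the mean (line) and SD (bar). In the first 2 panels all 3 SE-cKO points, at 41.6 to 60.5 and 49.6 to 66.3 TPM, lie above every other point, and in the third SE-cKO and sham points overlap.

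The order of the chains by mean TPM differed between the groups. Col4a1, Col12a1 and Col16a1 led in SE-cKO, at 26.8 ± 6.19, 20.1 ± 9.85 and 19.1 ± 5.82 TPM. Col4a1 exceeded Col16a1 in each SE-cKO library (32, 20 and 28.5 against 17.9, 13.9 and 25.4 TPM). The place of Col12a1 beside both differed between these libraries, at 10.4, 19.7 and 30.1 TPM. Col6a1 and Col4a1 led in SE-WT, at 13 ± 7.37 and 11.8 ± 6.48 TPM, and their order differed between libraries (11.7, 20.9 and 6.28 against 10.1, 6.38 and 19 TPM). Col25a1 led by mean in both sham groups, at 20.4 ± 4.52 TPM in sham-cKO and 13.3 ± 3.37 TPM in sham-WT. In sham-WT, Col1a2 exceeded it in replicate 1 (10.4 against 9.42 TPM) and Col9a3 in replicate 3 (19.5 against 15 TPM). Col10a1 and Col6a6 were the lowest in both sham groups, and Col6a6 was the lowest in both SE groups.

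The first question was which chains respond to SE in each genotype. In SE-cKO against sham-cKO, 16 of 44 chains rose and 2 fell (edgeR quasi-likelihood test, adjusted p under 0.05 over all genes tested), where 13.8% of 21307 genes rose and 8.92% fell. A chain is said to be called, to have risen or to have fallen only by this test, unless another fit is named. DESeq2 called 17 chains higher and 4 lower in the same comparison. The share of all genes called by DESeq2 there was not summarized, so these counts have no background beside them. By class, 4 of 6 basement membrane chains, 6 of 11 fibrillar chains and 6 of 27 other chains rose. In SE-WT against sham-WT, 6 of 43 chains rose and 0 fell, where 4.57% of 20803 genes rose and 0.832% fell. They were 1 of 6 basement membrane, 3 of 11 fibrillar and 2 of 26 other chains, and each was also among the 16. The median log2 fold changes in the cKO were 1.28 for basement membrane, 1.75 for fibrillar and 0.18 for other chains, beside -0.00 over all genes. In the WT they were 0.31, 0.12 and -0.06, in the same order, beside 0.02.

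**Figure D2:**
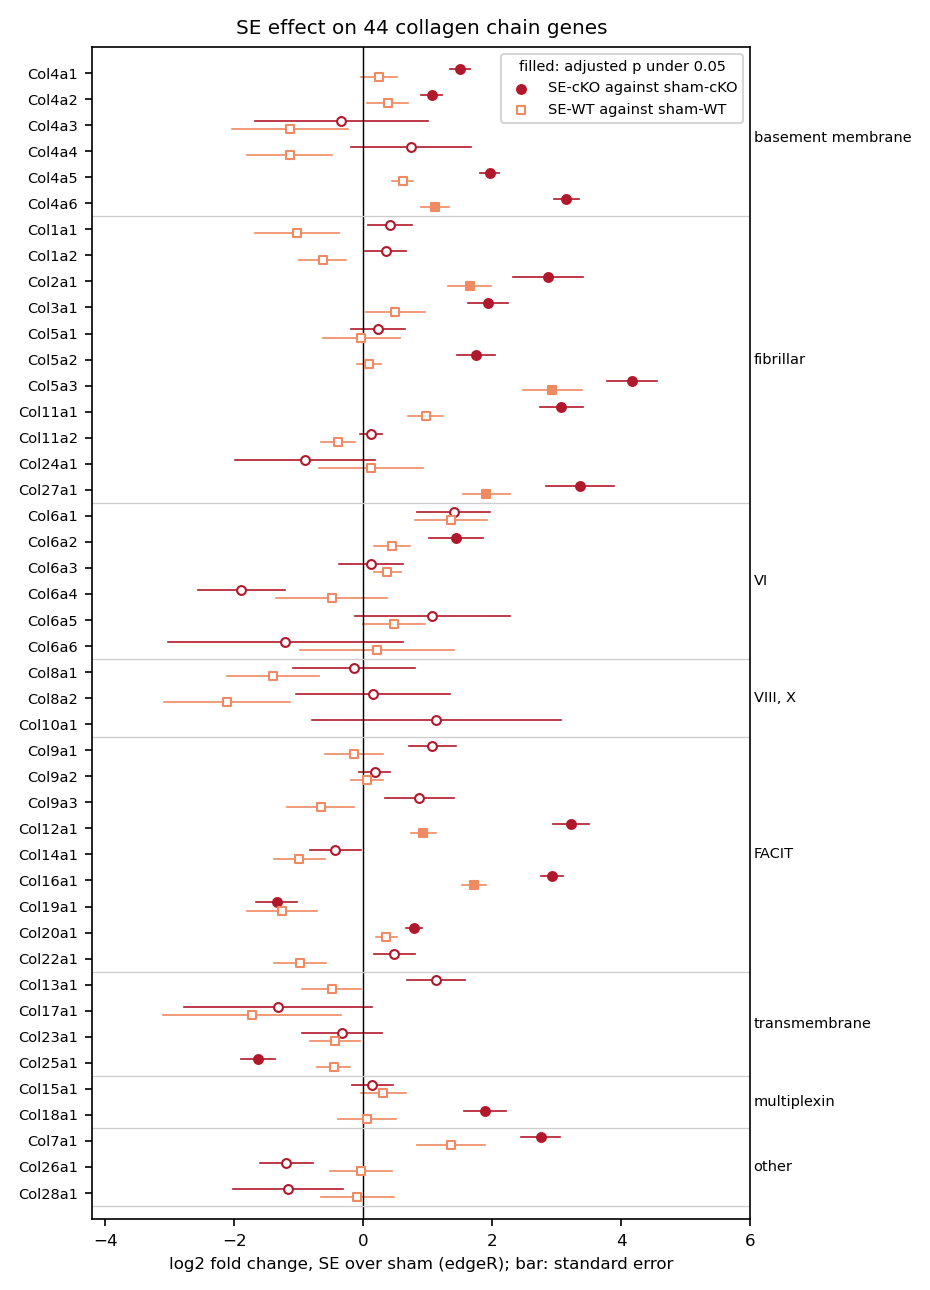
Log2 fold change, SE over sham, of each collagen chain by class in cKO (circles) and WT (squares), from edgeR, with its standard error (bar). Filled symbols have an adjusted p under 0.05: 18 in the cKO (16 to the right of 0) and 6 in the WT; Col10a1 was tested in the cKO only.

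The WT count rested on few mice. It was 1 when any 1 of the 3 sham-WT mice was left out. Leaving out SE-WT replicate 1 gave 3 calls (2 that rose and Col19a1, which fell), leaving out replicate 2 of that group gave 3, and leaving out its replicate 3 gave 6. Col16a1 was called each time. The cKO count, here of chains that rose or fell, was 16 to 21 when any 1 of the 7 libraries was left out. Leaving out any 1 SE-cKO replicate lost Col6a2, which rose, and Col19a1, which fell.

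Chains of collagen IV fell into 3 pairs by level and response. Log2 fold changes of single chains are given ± their standard error. Col4a1 was at 171, 108 and 126 CPM in SE-cKO, 51.7, 36.7 and 82.0 in SE-WT, 49.8, 47.2, 49.1 and 41.8 in sham-cKO and 43.9, 41.9 and 55.6 in sham-WT. Col4a2 stood at 61.7, 45.5 and 71.9 CPM in SE-cKO, 30.5, 21.7 and 49.7 in SE-WT, 26.2, 28.6, 31.2 and 26.1 in sham-cKO and 22.7, 20.7 and 33.2 in sham-WT. Col4a1 and Col4a2 encode the chains of the common collagen IV of all basement membranes, and for both every SE-cKO value was above every sham value. In SE-cKO against sham-cKO Col4a1 rose with a log2 fold change of 1.5 ± 0.16 (edgeR adjusted p = 3.92e-04), and Col4a2 with a log2 fold change of 1.06 ± 0.16 (edgeR adjusted p = 0.00217). In SE-WT against sham-WT the groups overlapped, Col4a1 having a log2 fold change of 0.24 ± 0.28 (edgeR adjusted p = 0.69) that was -0.10 without SE-WT replicate 3. The 2 genes overlap at their starts on opposite strands, so reads there are assigned with certainty only if strand was used, which the sources do not state. By TPM, Col4a1 was 1.73 to 2.7 times Col4a2 in SE-cKO, against 1.61 to 1.66 in SE-WT, 1.53 to 1.86 in sham-cKO and 1.64 to 1.97 in sham-WT.

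Col4a5 measured 40.8, 35.7 and 40.8 CPM in SE-cKO, 16.7, 15.8 and 16.2 in SE-WT, 11.9, 9.08, 10.2 and 8.36 in sham-cKO and 11, 8.67 and 11.8 in sham-WT. Col4a6 had 25.2, 32.3 and 27.6 CPM in SE-cKO, 8.81, 9.09 and 8.24 in SE-WT, 3.98, 3.28, 2.82 and 2.46 in sham-cKO and 3.91, 3.15 and 4.84 in sham-WT. These X-linked chains, which assemble with each other in the basement membrane of smooth muscle and other tissues, separated the 3 conditions with no overlap: SE-cKO was highest, SE-WT intermediate and both sham groups lowest. Col4a6 rose in both genotypes, with a log2 fold change of 3.15 ± 0.20 (edgeR adjusted p = 3.27e-05) in the cKO and a log2 fold change of 1.11 ± 0.22 (edgeR adjusted p = 0.0317) in the WT. Col4a5 rose in the cKO (log2 fold change 1.96 ± 0.15, edgeR adjusted p = 8.20e-05), whereas in the WT its log2 fold change of 0.61 ± 0.16 (edgeR adjusted p = 0.0808) was past the threshold with DESeq2 (adjusted p = 0.0109) and with edgeR on all 4 groups in 1 fit (adjusted p = 0.0257). The pair also changed in proportion: by TPM, Col4a5 was 1.12 to 1.63 times Col4a6 in SE-cKO and 1.66 to 2.00 times in SE-WT, against 2.82 to 3.75 in sham-cKO and 2.50 to 2.85 in sham-WT.

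Col4a3 was at 1.44, 0.133 and 0.433 CPM in SE-cKO, 0.306, 0.399 and 1.11 in SE-WT, 0.243, 0.528, 2.55 and 0 in sham-cKO and 0.346, 0.594 and 3.04 in sham-WT. Col4a4 stood at 4.53, 2.21 and 0.957 CPM in SE-cKO, 0.661, 0.675 and 1.11 in SE-WT, 0.643, 0.47, 4.56 and 0.344 in sham-cKO and 0.901, 0.759 and 3.66 in sham-WT. Together with Col4a5 these chains form the collagen IV of the kidney glomerulus. They were low and scattered and neither was called, but without sham-cKO replicate 3 Col4a4 was called in the cKO, at 2.37 in place of 0.74. Their highest values stood in sham-cKO replicate 3 and sham-WT replicate 3, the libraries with 2773 and 4571 CPM of choroid plexus markers, and in SE-cKO replicate 1 with 1256 CPM, whereas sham-WT replicate 2, with 1492 CPM, was not among them. The part of choroid plexus tissue in these values was not tested.

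**Figure D3:**
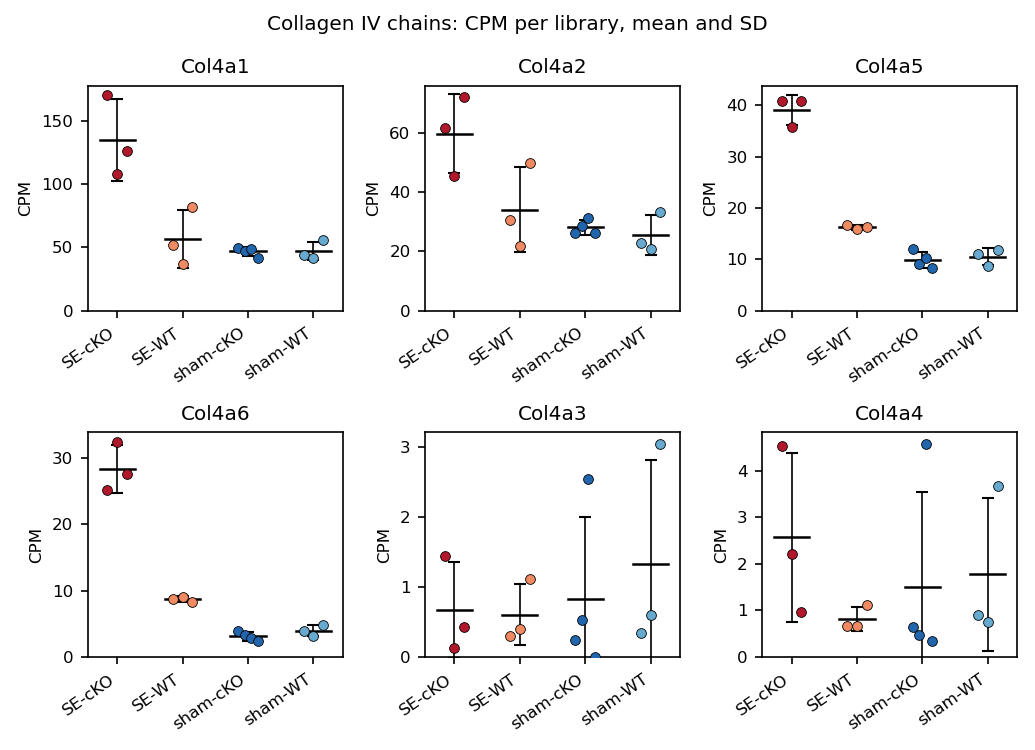
CPM (y axis, from 0) of the 6 collagen IV chains in each library (points), with the mean (line) and SD (bar, cut off at 0) per group. For Col4a5 and Col4a6 SE-cKO (35.7 to 40.8 and 25.2 to 32.3 CPM) lies above SE-WT (15.8 to 16.7 and 8.24 to 9.09 CPM), and SE-WT above both sham groups, while Col4a3 and Col4a4 scatter within each group.

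Fibrillar chains include those of the main tissue fibrils and minor chains, and of each kind some rose in the cKO and others were not called. Col1a1 measured 35.7, 15.0 and 15.4 CPM in SE-cKO, 7.07, 4.01 and 14.7 in SE-WT, 22.7, 12, 15.9 and 14.4 in sham-cKO and 32.8, 7.34 and 11.1 in sham-WT. Col1a2 had 62.0, 27.9 and 25.6 CPM in SE-cKO, 19.9, 14.4 and 28.6 in SE-WT, 38.6, 25.7, 30.1 and 24.3 in sham-cKO and 48.1, 18.8 and 29.0 in sham-WT. Collagen I, made of these 2 chains, is the main fibril of meninges, skin and bone, and its values overlapped between all SE and sham groups. Its changes were not called: in SE-cKO against sham-cKO Col1a1 showed a log2 fold change of 0.42 ± 0.34 (edgeR adjusted p = 0.447) and Col1a2 a log2 fold change of 0.35 ± 0.32 (edgeR adjusted p = 0.494), and both turned to -0.09 and -0.15, in that order, without SE-cKO replicate 1, the library with the highest fibroblast marker sum (365 CPM, against 88.6 to 200 CPM in the others). Igfbp2 alone made up 253 CPM of that sum. The median log2 difference of the fibroblast list from the sham mean was 0.67 in that library, against -0.83 to 0.38 in the others. In SE-WT against sham-WT the fold changes of Col1a1 and Col1a2 were -1.02 and -0.63 (edgeR adjusted p = 0.427 and 0.393).

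Col3a1 was at 71.0, 44.5 and 30.0 CPM in SE-cKO, 22.7, 8.73 and 18.8 in SE-WT, 17.2, 11.9, 11.6 and 8.83 in sham-cKO and 18.4, 6.40 and 9.93 in sham-WT. Collagen III is the fine fibril of vessel walls and early scars, and all 3 SE-cKO values lay above the other 10. It rose in the cKO, with a log2 fold change of 1.94 ± 0.31 (edgeR adjusted p = 0.00293), and in the WT showed a log2 fold change of 0.50 ± 0.46 (edgeR adjusted p = 0.597). By TPM, Col3a1 was 2.07 to 3.16 times Col1a1 in SE-cKO and 1.37 to 3.43 times in SE-WT, against 0.656 to 1.05 in sham-cKO and 0.599 to 0.952 in sham-WT, so that Col3a1 exceeded Col1a1 in all 6 SE libraries and in 1 of 7 sham libraries.

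Col5a3 stood at 16.3, 12.9 and 16.2 CPM in SE-cKO, 7.85, 3.57 and 12.3 in SE-WT, 0.741, 0.389, 1.43 and 0.737 in sham-cKO and 0.889, 0.994 and 1.18 in sham-WT. Col5a2 measured 40.3, 47.5 and 35.3 CPM in SE-cKO, 18.6, 13.8 and 15.2 in SE-WT, 16.1, 6.79, 15.4 and 9.47 in sham-cKO and 16, 11.6 and 16.2 in sham-WT. Collagen V starts and limits the growth of collagen I fibrils. Col5a3 showed the greatest rise of any chain in both genotypes, at a log2 fold change of 4.16 ± 0.39 (edgeR adjusted p = 1.98e-04) in the cKO and 2.93 ± 0.46 (edgeR adjusted p = 0.0154) in the WT, and no SE value was as low as any sham value. Col5a2 rose in the cKO (log2 fold change 1.75 ± 0.29, edgeR adjusted p = 0.0036) and was not called in the WT (log2 fold change 0.09 ± 0.19, edgeR adjusted p = 0.842), where the sign changed without sham-WT replicate 2 (-0.05) or SE-WT replicate 1 (-0.04). Col5a1, the partner of Col5a2, was at 3.08 to 20.4 CPM over the 13 libraries and was not called.

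Col11a1 had 43.0, 72.8 and 82.8 CPM in SE-cKO, 19.9, 19.4 and 14.2 in SE-WT, 4.81, 5.97, 8.94 and 11.4 in sham-cKO and 6.50, 8.10 and 12.2 in sham-WT. Col2a1 was at 6.60, 3.24 and 4.92 CPM in SE-cKO, 1.71, 1.84 and 1.54 in SE-WT, 0.328, 1.03, 1.04 and 0.262 in sham-cKO and 0.432, 0.552 and 0.607 in sham-WT. Both are cartilage collagens, and collagen XI also limits fibril width. Col11a1 rose in the cKO, with a log2 fold change of 3.07 ± 0.33 (edgeR adjusted p = 3.95e-04), and its WT value, a log2 fold change of 0.97 ± 0.27 (edgeR adjusted p = 0.0904), was past the threshold with DESeq2 (adjusted p = 0.0116) and in the fit of 4 groups with sex by Xist as a term. Col2a1 was low, and it rose in the cKO with a log2 fold change of 2.86 ± 0.54 (edgeR adjusted p = 0.00646) and in the WT with a log2 fold change of 1.65 ± 0.33 (edgeR adjusted p = 0.0346), a call lost with edgeR on all 4 groups in 1 fit (adjusted p = 0.0612). Col11a2, a partner of Col11a1, was at 10.4 to 24.4 CPM in all libraries and was not called.

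Col27a1 stood at 13, 13.8 and 49.9 CPM in SE-cKO, 8.12, 5.51 and 12.2 in SE-WT, 1.58, 3.37, 3.00 and 1.80 in sham-cKO and 2.44, 1.56 and 2.73 in sham-WT. This minor fibrillar chain of cartilage rose in both genotypes, with a log2 fold change of 3.36 ± 0.53 (edgeR adjusted p = 0.00258) in the cKO, which was 2.45 without SE-cKO replicate 3 (edgeR adjusted p = 0.00215), and a log2 fold change of 1.91 ± 0.36 (edgeR adjusted p = 0.0284) in the WT. SE and sham values did not overlap, and SE-cKO replicate 3 stood far above the other libraries. The highest value within each SE group was in its replicate 3, the pair of libraries high in mitochondrial rRNA, whose part was not tested. Col24a1, the remaining fibrillar chain, was at 0 to 2.58 CPM and was not called.

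Of the FACIT chains, Col12a1 and Col16a1 rose in both genotypes. Col12a1 measured 95.7, 189 and 241 CPM in SE-cKO, 37.6, 34.7 and 27.9 in SE-WT, 21.5, 18.2, 17.8 and 16.5 in sham-cKO and 19.1, 13.3 and 19.3 in sham-WT. Col16a1 had 75.6, 59.8 and 91.1 CPM in SE-cKO, 42.6, 33.0 and 28.6 in SE-WT, 10.8, 9.56, 10.2 and 8.39 in sham-cKO and 10.2, 9.10 and 11.8 in sham-WT. Collagen XII binds the surface of collagen I fibrils. Col12a1 rose with a log2 fold change of 3.22 ± 0.28 (edgeR adjusted p = 1.31e-04) in the cKO and a log2 fold change of 0.93 ± 0.19 (edgeR adjusted p = 0.0407) in the WT, where the call was lost with edgeR on all 4 groups in 1 fit (adjusted p = 0.0505). Col16a1 rose with a log2 fold change of 2.93 ± 0.17 (edgeR adjusted p = 2.13e-05) in the cKO and a log2 fold change of 1.72 ± 0.19 (edgeR adjusted p = 0.0038) in the WT. In both genes every SE-cKO value was above every SE-WT value, and every SE-WT value above every sham value.

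Col19a1 was at 17.1, 17.9 and 12.7 CPM in SE-cKO, 33.0, 6.18 and 12.1 in SE-WT, 45.0, 18.8, 41.4 and 52.4 in sham-cKO and 37.4, 41.7 and 41.3 in sham-WT. Col20a1 stood at 25.4, 24.7 and 27.7 CPM in SE-cKO, 18.7, 16 and 21.7 in SE-WT, 15.2, 14.3, 13.5 and 16.2 in sham-cKO and 14.9, 12.9 and 15.2 in sham-WT. In the mouse, Col19a1 is made by hippocampal interneurons and takes part in the formation of their synapses. It fell in the cKO, with a log2 fold change of -1.34 ± 0.32 (edgeR adjusted p = 0.0187), which was not past the threshold without any 1 SE-cKO replicate (lowest to highest value over the 7 left-out libraries -1.59 to -1.17) or with edgeR on all 4 groups in 1 fit (adjusted p = 0.0628). In the WT its log2 fold change of -1.26 ± 0.54 (edgeR adjusted p = 0.241) was not called, but was -2.16 and called without SE-WT replicate 1, and SE-WT replicates 2 and 3, high in striatal and thalamic markers, held the 2 lowest values of all. Col20a1 rose by less than any other called chain, with a log2 fold change of 0.79 ± 0.12 (edgeR adjusted p = 0.00237) in the cKO, and showed a log2 fold change of 0.36 ± 0.16 (edgeR adjusted p = 0.255) in the WT.

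Col14a1 measured 1.79, 1.65 and 0.822 CPM in SE-cKO, 1.24, 1.87 and 1.2 in SE-WT, 2.16, 1.18, 2.63 and 1.56 in sham-cKO and 1.79, 2.59 and 4.03 in sham-WT. Col22a1 had 1.73, 1.95 and 2.78 CPM in SE-cKO, 0.983, 0.675 and 1.63 in SE-WT, 1.64, 0.948, 1.64 and 1.83 in sham-cKO and 2.62, 1.89 and 1.84 in sham-WT. Both chains were below 5 CPM in every library and neither was called. In SE-WT against sham-WT, Col14a1, which binds collagen I fibrils, showed a log2 fold change of -0.99 ± 0.39 (edgeR adjusted p = 0.208). Col22a1, a chain of tissue junctions, had -0.98 (edgeR adjusted p = 0.222), and its 3 SE-WT values were below its 3 sham-WT values. Col9a1 and Col9a2, of cartilage collagen IX, were at 0.468 to 1.52 and 3.70 to 7.51 CPM and were not called. For Col9a1 every SE-cKO value was above every sham-cKO value, with a log2 fold change of 1.07 ± 0.36 (edgeR adjusted p = 0.0627), and DESeq2 (adjusted p = 0.0413) and edgeR on all 4 groups in 1 fit (adjusted p = 0.0493) called it, as did edgeR without SE-cKO replicate 3.

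**Figure D4:**
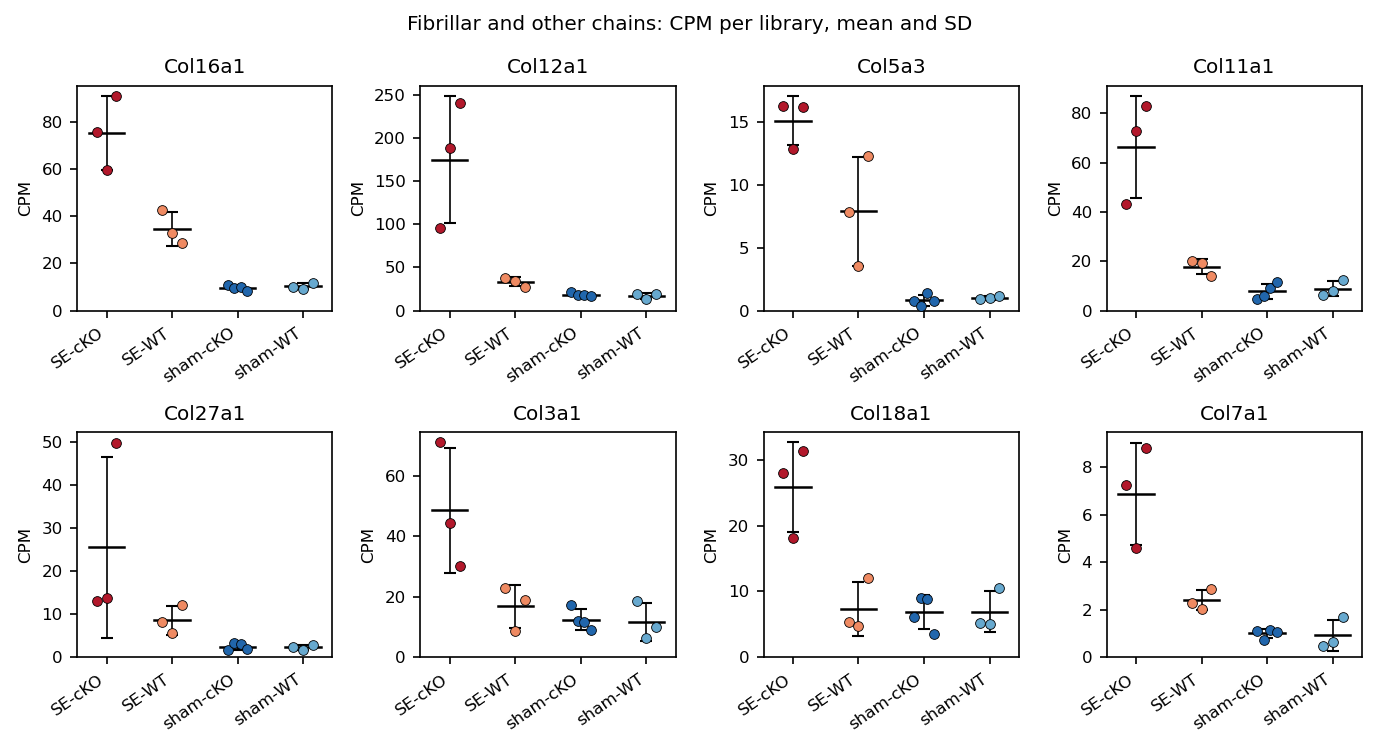
CPM (y axis, from 0) of 8 fibrillar and other chains that rose in the cKO, in each library (points), with the mean (line) and SD (bar) per group. SE-cKO points lie above all SE-WT and sham points in each panel, from 59.8 to 91.1 CPM for Col16a1 and from 95.7 to 241 CPM for Col12a1; the third SE-cKO library stands apart in Col27a1 (49.9 CPM).

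Col18a1 was at 28.1, 18.2 and 31.4 CPM in SE-cKO, 5.27, 4.72 and 12.1 in SE-WT, 6.13, 8.97, 8.84 and 3.52 in sham-cKO and 5.21, 5.09 and 10.5 in sham-WT. Col7a1 stood at 7.25, 4.58 and 8.82 CPM in SE-cKO, 2.29, 2.02 and 2.85 in SE-WT, 1.08, 0.715, 1.15 and 1.06 in sham-cKO and 0.457, 0.635 and 1.67 in sham-WT. Collagen XVIII is a multiplexin of vascular and epithelial basement membranes whose end fragment is endostatin, and collagen VII forms anchoring fibrils. Both rose in the cKO, Col18a1 with a log2 fold change of 1.89 ± 0.33 (edgeR adjusted p = 0.00452) and Col7a1 with a log2 fold change of 2.75 ± 0.30 (edgeR adjusted p = 4.01e-04), and in both the 3 SE-cKO values were the highest of all 13. In the WT Col7a1 showed a log2 fold change of 1.36 ± 0.52 (edgeR adjusted p = 0.194), and Col18a1 0.06 (edgeR adjusted p = 0.961), which was -0.48 without SE-WT replicate 3. Col15a1 measured 4.66, 4.95 and 3.35 CPM in SE-cKO, 3.30, 6.13 and 4.63 in SE-WT, 3.01, 5.11, 4.88 and 2.33 in sham-cKO and 3.13, 2.79 and 5.30 in sham-WT. Col15a1, the other multiplexin, overlapped between all groups and was not called.

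Collagen VI makes the beaded filaments next to basement membranes. Col6a1 had 36.9, 27.7 and 46.3 CPM in SE-cKO, 36.1, 72.3 and 16.4 in SE-WT, 13.1, 4.23, 29.8 and 7.75 in sham-cKO and 14.6, 9.30 and 24.3 in sham-WT. Col6a2 was at 16.1, 12.1 and 14.2 CPM in SE-cKO, 9.41, 6.57 and 8.16 in SE-WT, 6.51, 1.93, 8.08 and 3.92 in sham-cKO and 7.91, 4.06 and 5.48 in sham-WT. Col6a2 rose in the cKO (log2 fold change 1.44 ± 0.42, edgeR adjusted p = 0.0381), but not when any 1 of the 3 SE-cKO libraries, or sham-cKO replicate 1 or 4, was left out, and in the WT showed a log2 fold change of 0.44 ± 0.28 (edgeR adjusted p = 0.43). Col6a1 was not called in either genotype (cKO log2 fold change 1.40 ± 0.56, edgeR adjusted p = 0.11, WT log2 fold change 1.36 ± 0.56, edgeR adjusted p = 0.229), but without sham-cKO replicate 3 it was called in the cKO, at 2.12. Its highest value, 72.3 CPM, was in SE-WT replicate 2, the library high in striatal markers, where Col6a1 was 10.7 times Col6a2 by TPM, against 1.86 to 4.16 times in the other 12.

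Col6a3 stood at 6.85, 6.75 and 7.34 CPM in SE-cKO, 5.59, 5.64 and 6.22 in SE-WT, 5.10, 2.74, 13.4 and 3.96 in sham-cKO and 5.07, 3.66 and 4.55 in sham-WT. Col6a4 measured 0.561, 1.15 and 0.374 CPM in SE-cKO, 1.32, 2.38 and 0.296 in SE-WT, 2.57, 0.528, 3.49 and 3.52 in sham-cKO and 2.43, 2.66 and 0.422 in sham-WT. Col6a5 had 1.15, 3.38 and 1.12 CPM in SE-cKO, 1.13, 1.72 and 1.23 in SE-WT, 0.255, 0.497, 2.76 and 0 in sham-cKO and 0.728, 0.552 and 1.64 in sham-WT. These chains overlapped between SE-cKO and sham-cKO, and none was called by edgeR. Col6a4 had a log2 fold change of -1.89 ± 0.67 (edgeR adjusted p = 0.0782) in the cKO and was called lower by DESeq2 (adjusted p = 0.0176), and by edgeR without sham-cKO replicate 2. Col6a6 was at 0 to 1.02 CPM, with 0 counts in 4 libraries.

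Col25a1 was the transmembrane chain with the highest level. Col25a1 was at 45.4, 36.9 and 28.2 CPM in SE-cKO, 39.8, 64.8 and 73.8 in SE-WT, 91.3, 151, 125 and 79.1 in sham-cKO and 64.5, 83.9 and 92.5 in sham-WT. It encodes a neuronal collagen first found in amyloid plaques, and it fell in the cKO with a log2 fold change of -1.63 ± 0.26 (edgeR adjusted p = 0.00283), all SE-cKO values lying below all sham-cKO values. Its highest value, 151 CPM, was in sham-cKO replicate 2, the library with 1668 CPM of thalamic markers, and the fold change was -1.79 to -1.44 over the 7 left-out libraries and called each time. Of 12 markers of hippocampal neurons, 6 fell in the cKO and 3 in the WT, where 8.92% and 0.832% of all genes fell. Their sums were 877 to 1362 CPM in SE-cKO and 799 to 1766 CPM in SE-WT, against 1659 to 1955 CPM in sham-cKO and 1506 to 1965 CPM in sham-WT. The part of these neurons in the falls of Col19a1 and Col25a1 was not tested. In the WT the log2 fold change of Col25a1, -0.46 ± 0.25 (edgeR adjusted p = 0.35), was not called. Col23a1 stood at 15.7, 6.12 and 4.92 CPM in SE-cKO, 11.2, 3.43 and 8.55 in SE-WT, 13.8, 2.80, 19.2 and 8.24 in sham-cKO and 9.84, 9.57 and 11.5 in sham-WT. Col13a1 measured 1.91, 1.35 and 1.60 CPM in SE-cKO, 0.645, 0.496 and 1.05 in SE-WT, 1.08, 0.699, 0.832 and 0.279 in sham-cKO and 1.01, 0.649 and 1.37 in sham-WT. Col17a1 had 0.255, 0 and 0.404 CPM in SE-cKO, 0.0645, 0.468 and 0.567 in SE-WT, 0.437, 0.606, 1.11 and 0 in sham-cKO and 0.0494, 0.290 and 3.29 in sham-WT. Collagen XIII is a component of the neuromuscular junction and collagen XVII of hemidesmosomes. None of these 3 chains was called, although all Col13a1 values of SE-cKO were above those of sham-cKO.

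The choroid plexus sum ran from 57.9 to 4571 CPM within sham-WT alone, and the highest values of several chains stood in libraries where it was high. Col8a1 was at 13.8, 4.63 and 3.11 CPM in SE-cKO, 5.74, 4.54 and 7.45 in SE-WT, 2.49, 2.44, 24.0 and 2.15 in sham-cKO and 3.30, 10.8 and 32.0 in sham-WT. Col8a2 stood at 22, 4.10 and 1.76 CPM in SE-cKO, 1.51, 3.98 and 8.27 in SE-WT, 1.44, 1.29, 26.9 and 3.31 in sham-cKO and 2.49, 14.5 and 41.4 in sham-WT. Col9a3 measured 37.6, 16.6 and 18.1 CPM in SE-cKO, 11.2, 13.7 and 21.9 in SE-WT, 5.62, 11.7, 27.3 and 7.29 in sham-cKO and 10.7, 17.1 and 44.8 in sham-WT. Collagen VIII forms a short-chain network in the matrix of vessels and the cornea, and Col9a3 is a chain of collagen IX. In all 3 genes the highest values were in sham-WT replicate 3, sham-cKO replicate 3 and SE-cKO replicate 1, with choroid plexus sums of 4571, 2773 and 1256 CPM, above those in sham-WT replicate 2 with 1492 CPM. None was called, but without sham-cKO replicate 3 Col9a3 was called in the cKO, at 1.53 in place of 0.87, and the part of choroid plexus tissue was not tested here either. Col10a1 had 0, 0 and 0.732 CPM in SE-cKO, 0.274, 0.262 and 0.136 in SE-WT, 0.194, 0.233, 0 and 0 in sham-cKO and 0.136, 0.124 and 0 in sham-WT. Col26a1 was at 2.02, 1.05 and 1.21 CPM in SE-cKO, 3.46, 1.13 and 3.89 in SE-WT, 2.45, 5.47, 2.62 and 2.31 in sham-cKO and 3.81, 2.25 and 2.43 in sham-WT. Col28a1 stood at 0.357, 0.307 and 0.120 CPM in SE-cKO, 1.39, 0.633 and 0.517 in SE-WT, 0.850, 0.0622, 0.546 and 0.868 in sham-cKO and 1.41, 0.759 and 0.472 in sham-WT. Col10a1, of growing cartilage, was near the detection limit, and Col26a1 and Col28a1 were not called by edgeR. All SE-cKO values of Col26a1 were below those of sham-cKO, with a log2 fold change of -1.19 ± 0.41 (edgeR adjusted p = 0.0706), and DESeq2 called it lower (adjusted p = 0.0232). Its 2 highest values were in sham-cKO replicate 2 and SE-WT replicate 3, the libraries with 1668 and 947 CPM of thalamic markers, whose part was not tested.

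**Figure D5:**
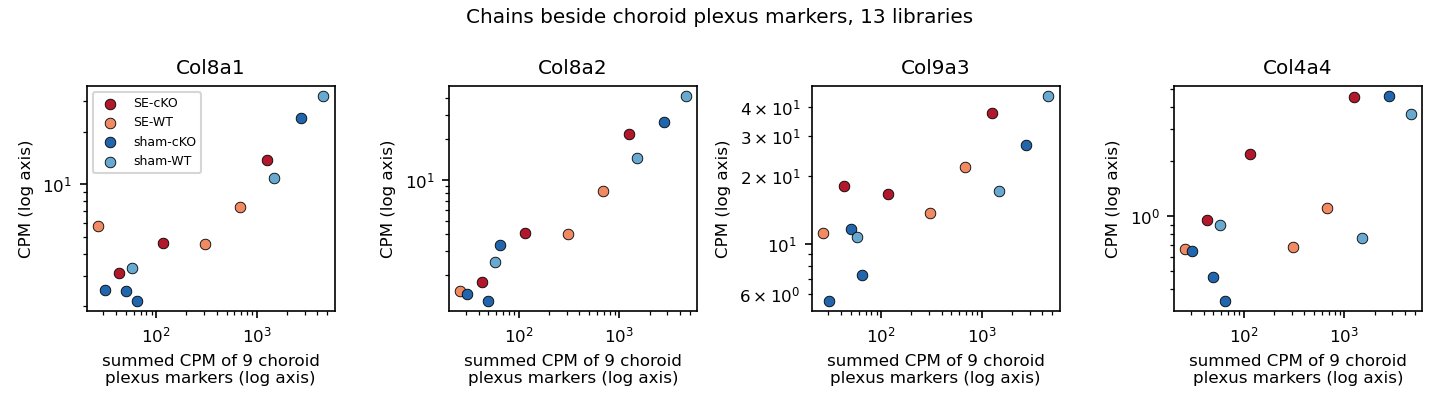
CPM (y axis, log) of Col8a1, Col8a2, Col9a3 and Col4a4 against the summed CPM of 9 choroid plexus markers (x axis, log) in the 13 libraries, colored by group. Libraries of 1 group spread over the x axis, from 57.9 to 4571 CPM in sham-WT and from 30.7 to 2773 CPM in sham-cKO, and the 3 highest values of each chain lie in the libraries with sums of 4571, 2773 and 1256 CPM.

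The next question was whether chains differ between genotypes after SE. In SE-cKO against SE-WT, 0 of 44 chains passed (0% of 21126 genes, edgeR), and 20 chains had an unadjusted p under 0.05, of which 18 were higher in SE-cKO, where 9.68% of all genes had one. For 19 chains all 3 SE-cKO values lay above all 3 SE-WT values, where 9.3% of genes did so, and for 1 chain, Col28a1, below, where 5.68% did. DESeq2 called 11 chains higher and 0 lower, where it called 1.45% of genes higher, and when edgeR was fitted to the 13 libraries jointly 6 were called higher, where 0.474% of genes were. The median log2 differences were 1.22 for basement membrane, 1.32 for fibrillar and 0.23 for other chains, beside 0.00 over all genes. These values share the SE-cKO libraries with the comparison against sham-cKO and are not independent of it.

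Of the chains called by both DESeq2 and the fit of 4 groups, Col4a6 showed a log2 fold change of 1.67 ± 0.18 (edgeR adjusted p = 0.236) and was called at adjusted p = 9.67e-12 by DESeq2, and Col4a5 a log2 fold change of 1.23 ± 0.16 (edgeR adjusted p = 0.236) and 3.91e-09 by DESeq2. Col12a1 showed a log2 fold change of 2.36 ± 0.34 (edgeR adjusted p = 0.236) and Col11a1 a log2 fold change of 1.86 ± 0.29 (edgeR adjusted p = 0.236). Col4a1 and Col16a1 had 1.21 and 1.09 (edgeR adjusted p = 0.337 and 0.296). DESeq2 also called Col2a1, Col3a1, Col5a2, Col18a1 and Col7a1, at 1.34 to 1.78 by edgeR, of which Col3a1 was called as well in the fit of 4 groups with sex by Xist as a term. No direction among these 11 chains turned in any fit with a library left out.

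The interaction, cKO response to SE minus WT response, tests whether the response itself differs. It was positive and past the threshold for 3 of 44 chains, where 0.0841% of 22596 genes were positive and called: Col4a6 at 2.04 ± 0.28 (edgeR adjusted p = 0.0418), Col4a5 at 1.35 ± 0.21 (edgeR adjusted p = 0.0418) and Col12a1 at 2.29 ± 0.37 (edgeR adjusted p = 0.0433). DESeq2 called 7, adding Col4a1, Col5a2, Col11a1 and Col16a1, where it called 1.58% of genes positive. The calls were thin: the count was 0 without any 1 of the 7 sham libraries, SE-WT replicate 2 or SE-cKO replicate 2, 2 without SE-WT replicate 3 or SE-cKO replicate 1, and 3 without SE-WT replicate 1 or SE-cKO replicate 3. It was also 0 with sex, taken from Xist, as a term. Xist was over 20 CPM in 2 of 3 SE-cKO, 1 of 3 SE-WT, 1 of 4 sham-cKO and 2 of 3 sham-WT libraries. Inferred sex was thus not balanced between the groups, and pilocarpine dose differed by sex. The lowest and highest values over the 13 left-out libraries were 1.84 and 2.15 for Col4a6, 1.23 and 1.43 for Col4a5, and 1.93 and 2.58 for Col12a1.

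The same was asked without SE. In sham-cKO against sham-WT, 0 of 43 chains passed (0% of 20785 genes, edgeR) and DESeq2 called 0, with 2 chains at an unadjusted p under 0.05, where 5.54% of genes had one. Class medians were -0.14 for basement membrane, -0.16 for fibrillar and -0.04 for other chains, beside 0.01 over all genes.

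Several genes whose products modify, fold and cross-link collagen rose after SE. Of 15 genes of hydroxylation and glycosylation, 11 rose in SE-cKO against sham-cKO and 4 in SE-WT against sham-WT. For this and the following lists, 13.8% of all genes rose in the cKO and 4.57% in the WT. The list's median log2 fold change was 0.96 in the cKO and 0.18 in the WT, beside -0.00 and 0.02 over all genes. P4ha3, a prolyl 4-hydroxylase subunit, had log2 fold changes of 3.26 in the cKO and 2.86 in the WT (edgeR adjusted p = 3.59e-04 and 0.00133). The lysyl hydroxylases Plod1 and Plod3 rose by 1.77 and 1.76 in the cKO and by 1.19 and 0.75 in the WT. Of 8 folding and export genes, Serpinh1 (the collagen chaperone HSP47) at 1.66, Fkbp10 at 1.54 and Sec24d at 0.65 rose in the cKO, and Sec23a, of the same vesicle coat as Sec24d, fell by 0.59 in the cKO and by 0.57 in the WT. Of 8 propeptide-processing genes, Bmp1, the protease that removes the C-terminal propeptide, rose by 1.96 in the cKO and 1.04 in the WT.

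Of 5 cross-linking oxidases of lysine, 4 rose in the cKO (Lox at 2.01, Loxl1 at 1.90, Loxl2 at 2.47 and Loxl3 at 2.27) and 1 in the WT (Loxl3 at 0.74), with medians of 2.27 and 0.74, beside -0.00 and 0.02 over all genes. Of 10 tested collagen receptors, 6 rose in the cKO, among them Itgb1 at 1.29, Ddr1 at 1.66 and Lair1, an inhibitory receptor of leukocytes, at 1.94, and 2 rose in the WT (Itgb1 at 0.67 and Lair1 at 1.83). Of 12 partners of collagen IV in basement membranes, 6 rose in the cKO, among them Sparc at 1.56, Lamc1 at 0.51 and Lama4 at 1.02, and 1 in the WT (Sparc at 1.54). Of 9 tested partners of fibrils, 6 rose in the cKO, among them Bgn at 2.47, Lum at 1.80 and Fn1 at 2.86, and 1 in the WT (Tnc at 1.32). Each was called by edgeR over all genes, and the lists were drawn up with earlier results known.

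Some markers of the cells that make collagen rose after SE and others did not. Of 12 endothelial markers, 6 rose in the cKO, among them Cdh5 at 1.03, Esam at 1.10 and Pecam1 at 1.08, and 0 in the WT, and their sum was 260 to 465 CPM in SE-cKO and 227 to 383 CPM in SE-WT, against 211 to 271 CPM in sham-cKO and 236 to 261 CPM in sham-WT. Of 12 mural cell markers, 2 rose in the cKO, the contractile genes Tagln at 5.58 and Cnn1 at 2.34, whereas Myh11, also contractile, had -1.30 (edgeR adjusted p = 0.0694). In the WT 1 rose (Notch3 at 1.45), with sums of 304 to 484 CPM in SE-cKO and 210 to 345 CPM in SE-WT, against 219 to 267 CPM in sham-cKO and 233 to 254 CPM in sham-WT. Tagln alone made up 102 to 135 CPM of the SE-cKO sums, against 7.28 to 20.7 CPM in SE-WT and 1.49 to 4.54 CPM in sham. The mural list's median log2 difference from the sham mean overlapped, at 1.15, 0.44 and 0.06 in SE-cKO and 0.10, -0.17 and 0.52 in SE-WT. Of 12 fibroblast markers tested, 2 rose in the cKO (Igfbp2 at 2.15 and Aldh1a2 at 0.77), with 7 positive and 5 negative, among them Ogn at -1.43 and Igf2 at -1.24, which were not called. In the WT 0 of 13 rose and 9 were negative, with a median of -0.36, and the sums were 128 to 365 CPM in SE-cKO and 92.2 to 196 CPM in SE-WT, against 88.6 to 169 CPM in sham-cKO and 92.9 to 178 CPM in sham-WT. Igfbp2 alone made up 69.3 to 253 CPM of the SE-cKO sums and 52 to 124 CPM of the SE-WT sums. Of 9 astrocyte markers, 5 rose in each genotype and 1 (Slc1a2) fell in the cKO, and of 9 microglia markers, all 9 rose in each. Astrocyte marker sums were 10446 to 10744 CPM in SE-cKO and 7526 to 8802 CPM in SE-WT, with no overlap, against 4498 to 5936 CPM in sham-cKO and 4906 to 5267 CPM in sham-WT. Sums of 9 proliferation genes were 188 to 522 CPM in SE-cKO and 122 to 185 CPM in SE-WT, a narrow separation, against 11.5 to 15.9 CPM in sham-cKO and 14.6 to 18.3 CPM in sham-WT. The medians of that list met at 3.70, being 4.40, 5.12 and 3.70 in SE-cKO and 3.70, 3.50 and 3.17 in SE-WT. The interaction was positive and called by edgeR for the astrocyte markers Gfap (1.05) and Vim (1.26), for Tagln (3.83) and for Loxl3 (1.53), as it was for the 3 chains. Their part in the collagen values was not tested.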

How the data were processed

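Total RNA of 13 hippocampi was sequenced with a stranded total RNA kit. The authors trimmed reads with Trimmomatic, aligned them with HISAT2 2.1.0 and quantified genes with StringTie 2.1.3b, against mm10; the strand setting is not given in the sources used here. The authors deposited, per gene and library, a raw read count, FPKM and TPM. Counts were tested with edgeR 4.0.16 (robust quasi-likelihood, TMM, minimum count 10 and total 15, R 4.3.3) within the groups compared, and with all 4 groups for the interaction, with Benjamini-Hochberg adjustment over all genes tested and a threshold of 0.05. CPM were scaled by TMM over the 13 libraries, and a prior count of 2 entered log CPM only. Deposited TPM served for levels between chains, and deposited FPKM for a check of chain ratios. Standard errors are the fold change divided by the square root of F. The procedure was tested on simulated data. Members, lists and tests were chosen with earlier results of these data known. Values per library are given for the members of each class highest in TPM (up to 4) or smallest in p in each SE comparison (up to 4), and of other lists up to 3 genes smallest in p are named. DESeq2 1.42.0, its size factors in edgeR, all 4 groups in 1 fit, no low-count filter, left-out libraries, a replicate block and, after seeing the data, sex by Xist (over 20 CPM) were alternatives. Depth limits low chains, and p-values rest on 3 or 4 mice a group. Col12a1 has no window in the promoter table used.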

Additional observations from a re-analysis of the deposited data

Results flagged for a closer look

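In sham-cKO, a group of 4, 1 library stood far from the other 3 in 4 chains of 44 examined, where chance gives about 1 in 20. Col4a4 was at 4.56 CPM in sham-cKO replicate 3 and at 0.344 to 0.643 CPM in the others. Col8a1 was at 24.0 CPM in the same library and at 2.15 to 2.49 CPM in the others, and Col8a2 at 26.9 CPM and 1.29 to 3.31 CPM. Col26a1 was at 5.47 CPM in sham-cKO replicate 2 and at 2.31 to 2.62 CPM in the others. The first of these libraries had 2773 CPM of choroid plexus markers and the second 1668 CPM of thalamic markers, whose part was not tested.

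The interaction term of edgeR was past the threshold for Col12a1 (2.29 on the log2 scale, adjusted p = 0.0433), Col4a5 (1.35, adjusted p = 0.0418) and Col4a6 (2.04, adjusted p = 0.0418). Of all genes, 0.0841% were positive and called. These calls were lost when any sham library was left out, with a replicate block and with sex by Xist as a term.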

How the results depend on the processing

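In SE-WT against sham-WT, 6 chains were called, 3 with a replicate block, and 1 to 6 when 1 library was left out. In SE-cKO against SE-WT the count of 0 was 11 with DESeq2, 6 with all 4 groups in 1 fit and 7 with sex by Xist added to that fit, an alternative chosen after seeing the data. The interaction count of 3 was 7 with DESeq2, 0 with a replicate block, 0 with the sex term and 0 to 3 when 1 library was left out. It was also 0 without the 3 libraries with raised markers of striatum or thalamus, but that leaves 1 SE-WT library, assumed to vary like the other groups, so nothing follows about the markers. The count of 18 in SE-cKO against sham-cKO was 21 with DESeq2, which added Col26a1, Col6a4 and Col9a1, and 16 to 21 when 1 library was left out. Col19a1 was lost with the block, without the libraries of another title style, in the fit of 4 groups and with the sex term, and Col6a2 in the first 2 of these. Replicate numbers did not pair the mice: deviations of same-numbered libraries correlated at -0.074 to 0.249, not all over 0.1 in any comparison.

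Signs turned in SE-WT against sham-WT for Col18a1 (0.06), at -0.48 without the libraries of another title style, -0.40 without the 3 libraries high in markers of striatum or thalamus, a value that rests on 1 SE-WT mouse, and -0.48 to 0.49 over the left-out libraries. Col4a1 (0.24) was at -0.10 without the title-style libraries and ran from -0.10 to 0.48 over the left-out libraries, and Col5a2 (0.09) from -0.05 to 0.18. In SE-cKO against sham-cKO, Col1a1 ran from -0.09 to 0.64 and Col1a2 from -0.15 to 0.60, both negative without SE-cKO replicate 1. Of the other values of named chains in SE-WT against sham-WT, 232 kept direction and side of the threshold, 32 lost and 7 gained the call. In SE-cKO against sham-cKO 284 kept both and 14 lost the call, in SE-cKO against SE-WT 130 kept both and 24 gained it, and for the interaction 20 kept both and 40 lost it. The causes were not tested. At this depth, 8 chains averaged under 1 CPM, and 14 of 572 values were at 0 counts.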
